A study of Rattus norvegicus with 4 samples.

Results

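The integrated stress response was followed through 9 genes in rat alveolar macrophages exposed to single-walled carbon nanotubes. They are Atf4, Ddit3 and Atf3, which encode the transcription factors ATF4, CHOP and ATF3, and Ppp1r15a, Trib3, Sesn2, Ddit4, Asns and Chac1, which lie downstream of ATF4. They were chosen by name from the pathway, as the non-control probes whose RefSeq accession carries 1 of these rat gene symbols. This gave 10 probes of 9 genes, out of 45598 probes on the array and 16581 genes that could be named. Every gene had 1 probe except Ddit4, which had 2.

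The integrated stress response starts when a kinase phosphorylates the translation factor eIF2 alpha, each kinase answering to a different stress such as misfolded protein in the endoplasmic reticulum, amino acid shortage, haem shortage or double-stranded RNA. General protein synthesis falls, while the ATF4 mRNA is translated more, because short reading frames upstream of its coding sequence are then bypassed. ATF4 in turn switches on genes of amino acid supply and redox defence, its partner factors CHOP and ATF3, and the regulators that end the response. Since much of the control of ATF4 is at translation, the level of its mRNA is not a measure of the protein.

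The cells were NR8383, a line grown from the lung lavage of a normal rat, cultured partly adherent and partly floating, and described as being at 20 passages. All 4 samples belong to 1 group, which received NRCWE055, a pristine single-walled carbon nanotube, for 4 h at a dose of 11 cm2/cm2. The samples were described as biological replicates. For replicates 2, 3 and 4 the source name and the title disagree on the nanotube number, and the title was taken. Unexposed control cells were part of the plan of the study but were not analysed here, so no effect of exposure is measured below. The data show which of the genes were measurable in exposed cells, at what signal, and how closely 4 exposed cultures matched one another.

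The 4 arrays, each hybridised with Cy3-labelled cRNA of 1 culture, differed in brightness. Among probes detected on every array, the 75th percentile signal was between 1756 and 2861, highest on replicate 3 and lowest on replicate 1. Between 40.8% and 43.7% of probes were well above background on an array. Precision was limited by the small number of arrays, 4. Of the macrophage markers with a probe, 8 of 10 were well above background on all arrays, among them Cd68 at 3.07 ± 0.10, Spi1 at 0.82 ± 0.072, Csf1r at -1.54 ± 0.16 and Pparg at 3.32 ± 0.12 (log2 relative to the array's 75th percentile, SD, n = 4). Adgre1 and Marco, each with 1 probe, went undetected on every array, which does not show that their transcripts were absent. In such bulk RNA a smaller share of cells and less RNA per cell cannot be told apart. Of 14 markers of lung epithelium, fibroblasts, lymphocytes and neutrophils, 1 was above background on all arrays, the neutrophil gene S100a8, and 11 on none.

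ATF4 and its relatives act through short DNA elements, and the stretches that hold such letters in these genes are shown here. RefSeq (build GRCr8) gave a window before the annotated start for 8 of the 9 genes, all but Atf3. In each window, 250 bases were searched on both strands. The element bound by ATF4 paired with a C/EBP factor, searched as TGATGNAA, was found in the windows of Chac1 and Trib3 and in 3.27% of the windows of 27457 genes, taking the window listed first for a gene. The full cyclic AMP response element TGACGTCA was found in that of Ppp1r15a and in 1.70% of all windows. The AP-1 element TGACTCA was found in that of Ddit3 and in 3.98% of all windows. The matches lay in different genes, so they could not overlap. A match describes the letters and is not a binding site, and no binding was measured. The windows with a match are printed below 5′ to 3′ in the direction of the gene, with the match in capitals. The Chac1 window is chr3:126795881-126796130 on the plus strand, with the match on the opposite strand, 167 to 160 bases before the start. The Trib3 window is chr3:161275534-161275783 on the minus strand, with the match on the opposite strand, 21 to 14 bases before the start. The Ppp1r15a window is chr1:105139597-105139846 on the minus strand, with the match 66 to 59 bases before the start. The Ddit3 window is chr7:65001445-65001694 on the plus strand, with the match 241 to 235 bases before the start.
Chac1: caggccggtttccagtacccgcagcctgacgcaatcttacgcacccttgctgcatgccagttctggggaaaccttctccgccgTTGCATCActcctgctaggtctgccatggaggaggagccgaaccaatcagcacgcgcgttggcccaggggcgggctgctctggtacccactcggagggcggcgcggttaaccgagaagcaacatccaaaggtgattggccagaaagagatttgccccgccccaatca
Trib3: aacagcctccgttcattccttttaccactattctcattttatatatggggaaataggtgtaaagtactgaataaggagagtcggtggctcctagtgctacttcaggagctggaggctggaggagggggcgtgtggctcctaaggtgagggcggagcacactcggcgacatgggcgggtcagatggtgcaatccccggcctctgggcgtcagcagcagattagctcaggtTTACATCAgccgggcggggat
Ppp1r15a: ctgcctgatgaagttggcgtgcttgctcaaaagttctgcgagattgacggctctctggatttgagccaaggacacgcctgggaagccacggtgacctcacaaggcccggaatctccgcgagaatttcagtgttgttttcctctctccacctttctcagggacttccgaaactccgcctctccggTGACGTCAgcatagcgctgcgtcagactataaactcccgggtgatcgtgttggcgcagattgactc
Ddit3: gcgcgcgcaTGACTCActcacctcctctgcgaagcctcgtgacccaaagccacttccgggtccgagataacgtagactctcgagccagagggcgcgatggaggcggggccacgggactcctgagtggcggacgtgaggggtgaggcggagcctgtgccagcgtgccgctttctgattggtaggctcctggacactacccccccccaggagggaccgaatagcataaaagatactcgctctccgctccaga

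Every one of the 9 genes was measurable in all 4 cultures, with all 10 probes flagged as well above background on every array and no spot saturated. Over all named genes, 52.4% had a probe well above background on all arrays. Signals below are the deposited processed intensities, averaged on the log2 scale over the usable spots of a probe. Levels are log2 values with the array's 75th percentile as zero, and errors are SDs over 4 arrays (n = 4). They describe a probe, and the levels of different genes are not set against each other, since probes differ in how strongly they bind.

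Atf4, the central transcription factor of the response, had processed signals of 26378, 38404, 40583 and 31023.5 on replicates 1 to 4. Its raw signal stood 682 to 888 times above the local background. The level was 3.91 ± 0.097, highest on replicate 4 at 4.05 and lowest on replicate 3 at 3.83. Atf4 was thus measured far from the detection limit, with replicate 4 above the others. Ddit3, whose product CHOP is the factor most tied to cell death under prolonged stress, had signals of 3454, 4844.5, 5165 and 3621. Its level was 0.92 ± 0.058, and replicates 1 and 4, at 0.98 and 0.95, lay above replicates 2 and 3, at 0.88 and 0.85. Atf3, an early stress-induced repressor of the same bZIP family, had signals of 1547, 2772, 2839 and 1840.4. Its level was -0.036 ± 0.11, from -0.18 on replicate 1 to 0.075 on replicate 2. Replicate 1 was the lowest array for Atf3 and the highest for Ddit3.

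Ppp1r15a encodes GADD34, the subunit that brings protein phosphatase 1 to eIF2 alpha and so ends the response. Its signals were 9511, 13080, 14414.5 and 9322 on replicates 1 to 4, and its level was 2.35 ± 0.059. Replicate 1 stood at 2.44, and the other 3 arrays lay between 2.31 and 2.33. Trib3, a pseudokinase that binds ATF4 and CHOP and restrains them, had signals of 6224, 9155, 10430.1 and 6484. Its level, 1.82 ± 0.034, lay between 1.79 and 1.87, the closest agreement among the genes read by 1 probe.

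Sesn2 and Ddit4 both restrain mTORC1, the growth-promoting kinase complex: sestrin 2 senses leucine, and REDD1, the product of Ddit4, acts through the TSC complex. Sesn2 had signals of 700.3, 985, 1238 and 628, and a level of -1.38 ± 0.16, the widest spread of the 9 genes. Replicate 3 was highest at -1.21 and replicate 4 lowest at -1.58, a 1.29-fold span. The brighter Ddit4 probe had signals of 466, 687, 765 and 509 and a level of -1.91 ± 0.024. The dimmer Ddit4 probe had signals of 47.8, 48.9, 74.3 and 43.9 and a level of -5.41 ± 0.24. These probes of 1 gene disagreed in level and in spread. The dimmer probe was near the floor, with raw signal 2.39 to 2.95 times the local background, against 13.2 to 18.6 times for the brighter. It nevertheless exceeded the brightest of 308 negative control spots on each array, which reached 31.5, 43.5, 20.8 and 28.0 on replicates 1 to 4. Averaged over its probes, Ddit4 was at -3.66 ± 0.13. Its probes lay 3.50 apart on the log2 scale, so this mean depends on which probe is read and is no amount of transcript.

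Asns encodes asparagine synthetase, long used as a readout of amino acid shortage. Its signals were 12569.8, 18116, 20678 and 14159.5 on replicates 1 to 4, and its level was 2.85 ± 0.055, between 2.78 on replicate 2 and 2.92 on replicate 4. Chac1 encodes an enzyme that breaks down glutathione and is induced by ATF4. Its signals were 493, 663, 738 and 488, and its level was -1.93 ± 0.068. For Chac1, replicate 1 was highest at -1.83 and the other arrays lay between -1.99 and -1.94.

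**Figure D1:**
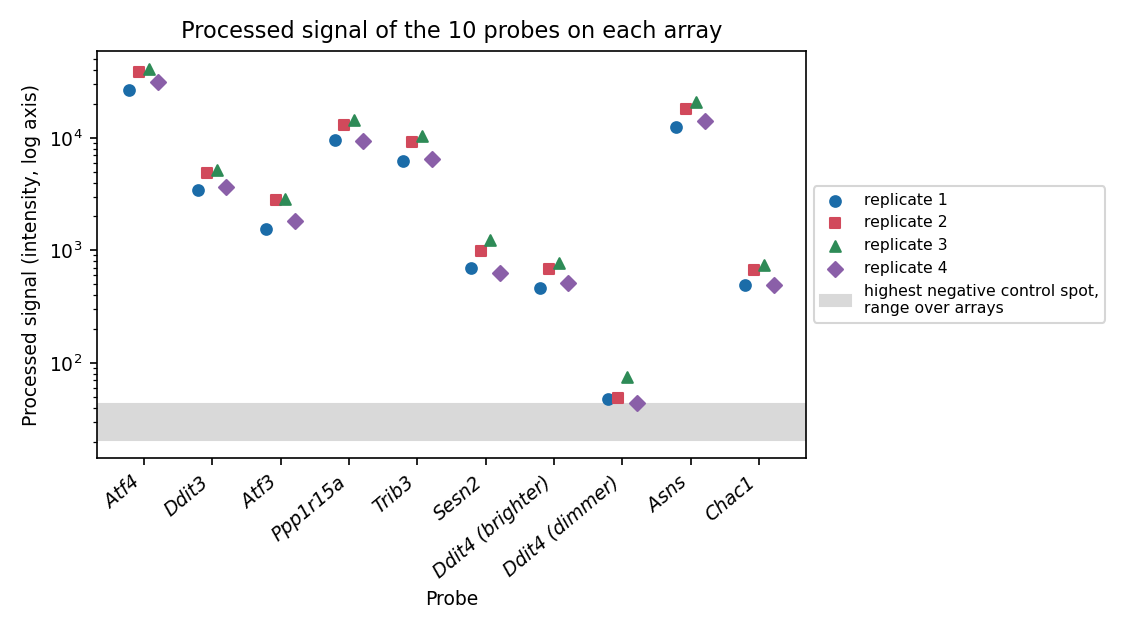
Processed signal (intensity, log axis) of the 10 probes on each of the 4 arrays, replicates 1 to 4, with the grey band giving the range over arrays of the highest negative control spot. Replicate 3 is brightest for every probe, and only the dimmer Ddit4 probe, at 43.9 to 74.3, comes close to the band, which runs from 20.8 to 43.5.

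Scaling to a common percentile removed most of the difference between arrays in these signals. Before scaling, replicate 3 was highest for all 10 probes, and the highest array exceeded the lowest by 1.5-fold to 1.97-fold. The 75th percentile of all arrays spanned 1.63-fold. After scaling, the span was 1.04-fold to 1.46-fold, the upper end being the dimmer Ddit4 probe. No gene spanned over 2-fold between arrays, against 1.11% of the 8685 genes detected on all arrays. The 95% confidence interval of the mean of 4 arrays had a half-width of 0.038 for the brighter Ddit4 probe, 0.25 for Sesn2 and 0.39 for the dimmer Ddit4 probe, on the log2 scale.

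Deviations of the 9 genes were taken from each gene's own mean over the arrays. Each gene therefore had to lie above its mean on some arrays and below it on others. On replicate 1, 6 of the 9 were above their own mean over arrays, on replicate 2 only Atf3 was and the other 8 were below it, and on replicates 3 and 4 there were 5 each. Their median deviation was 0.056 on replicate 1, -0.036 on replicate 2, 0.0048 on replicate 3 and 0.010 on replicate 4. Over all detected genes the median deviation lay between -0.0090 and 0.0077. How many of all detected genes lay above their own mean on each array was not counted. The counts for the 9 genes are therefore a description and do not show that these genes moved together. Correlations between the genes over 4 arrays were not computed, since so few points cannot carry them.

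**Figure D2:**
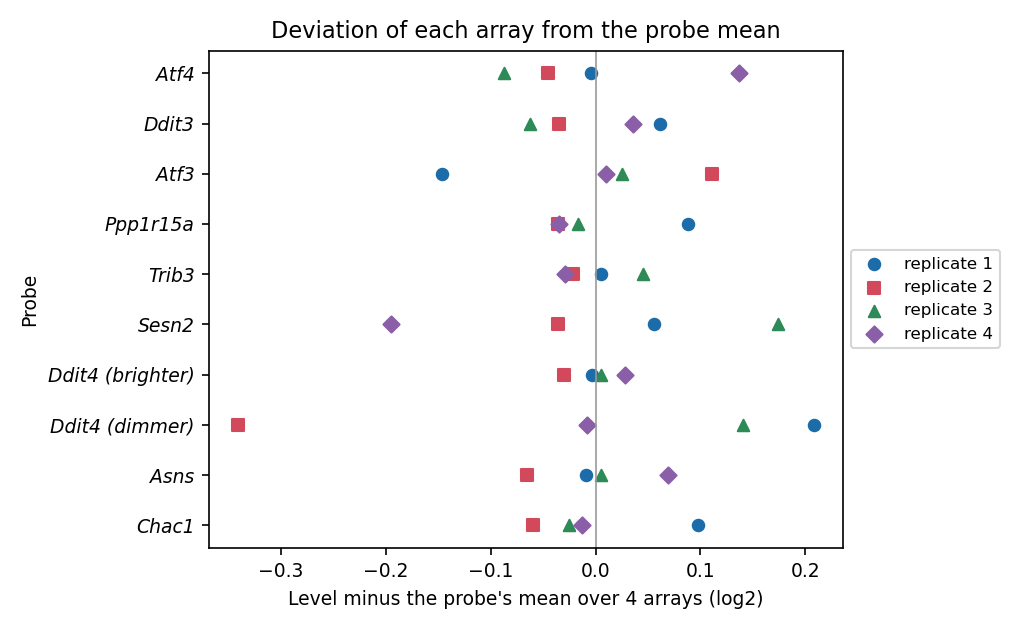
Level on each array minus the probe's own mean over the 4 arrays (log2), for the 10 probes, with a symbol for each replicate. Replicate 2 lies below the mean for every gene but Atf3, and the dimmer Ddit4 probe and Sesn2 spread most.

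The median SD of the 9 genes was 0.068 on the log2 scale, against 0.093 over all genes detected on 4 arrays, and 5 of the 9 lay below that median. Trib3 had a smaller SD than all but 6.63% of genes, whereas 76.9% of genes had a smaller SD than Sesn2. Over the whole array, dimmer genes spread more: the median SD was 0.18 in genes at a level below -4 and 0.066 in genes above 0. Atf4, Ddit3, Ppp1r15a, Trib3 and Asns lay above 0, so their SDs of 0.097, 0.058, 0.059, 0.034 and 0.055 stand beside 0.066. Atf3, Chac1 and Sesn2, at 0.11, 0.068 and 0.16, stand beside the 0.078 of genes between -2 and 0. The mean of the Ddit4 probes, with an SD of 0.13, falls between -4 and -2, where the median SD was 0.099, but neither probe does. The brighter Ddit4 probe, at -1.91, had an SD of 0.024, beside the 0.078 of genes between -2 and 0. The dimmer Ddit4 probe, at -5.41, had an SD of 0.24, beside the 0.18 of genes below -4. The scanner software gave each spot an error of 10.0% of its signal for all but the dimmer Ddit4 probe, whose error was 11.2% to 12.5%.

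**Figure D3:**
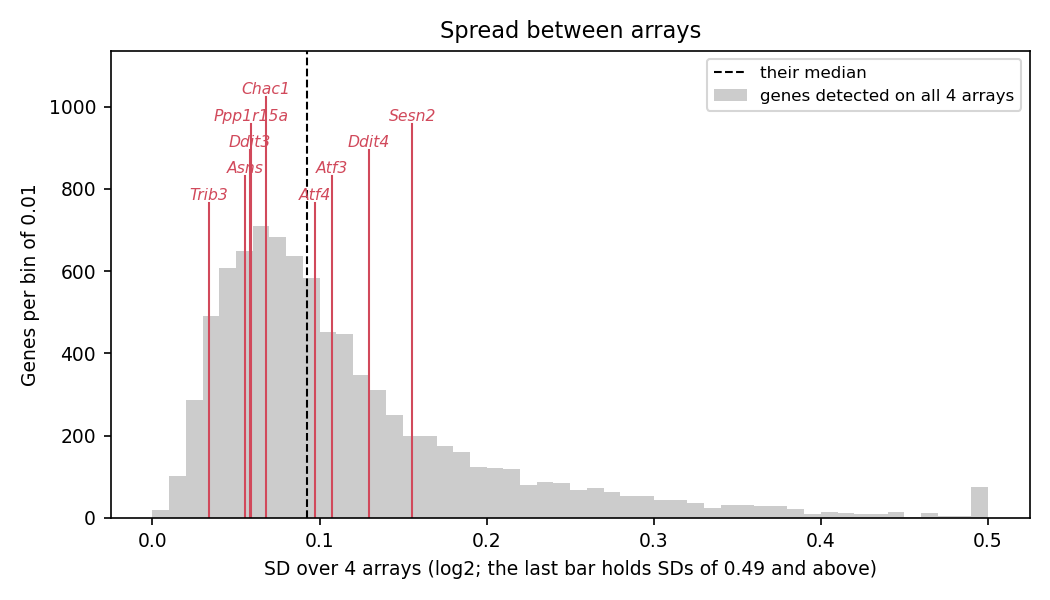
Histogram of the SD over 4 arrays (log2) of the 8685 genes detected on all arrays, with red lines for the 9 genes and a dashed line for the median of 0.093. Trib3, Asns, Ddit3, Ppp1r15a and Chac1 lie left of the dashed line, and Atf4, Atf3, Ddit4 and Sesn2 right of it.

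Atf4, Atf3 and Asns had probes printed more than once per array, which allowed the difference between arrays to be set against the scatter of spots within an array. In limma's moderated F test over replicate spots, 42.8% of the 1742 such probes detected on all arrays differed between arrays at a Benjamini-Hochberg adjusted p under 0.05. Atf4, printed 10 times, differed between arrays by up to 0.22 on the log2 scale (limma adjusted p = 0.000772). This is a small difference of a kind common on these arrays, since 65.7% of the 1038 tested probes printed 10 times differed, with a median largest difference of 0.16. The Atf4 spots lay between 3.61 and 4.04 on replicate 1, 3.80 and 3.96 on replicate 2, 3.76 and 3.90 on replicate 3, and 3.84 and 4.17 on replicate 4. The Atf4 difference rested on replicate 4, without which it was 0.091 (limma adjusted p = 0.317). From median signals with normexp background correction it was 0.20 (limma adjusted p = 0.318), and over all alternatives the limma adjusted p ranged from 1.02e-05 to 0.318. Atf3 and Asns, printed 2 times, had largest differences of 0.26 (limma adjusted p = 0.259) and 0.13 (limma adjusted p = 0.377). Of 704 tested probes printed 2 times, 9.09% differed, so a miss at this number of spots does not show that the cultures were alike. With 1 array per culture, the culture and its array cannot be told apart.

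**Figure D4:**
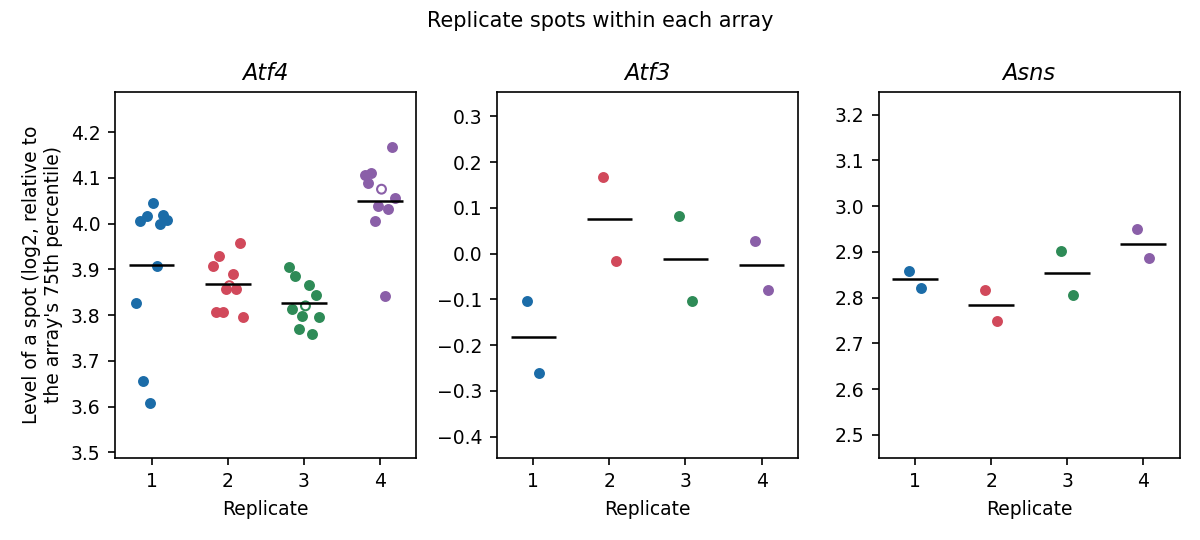
Level of each replicate spot (log2, relative to the array's 75th percentile) of Atf4, Atf3 and Asns on replicates 1 to 4. Filled points are usable spots, open points are spots the scanner software marked as outliers, bars are array means, and the 3 panels share the height of their axis. The Atf4 mean on replicate 4, at 4.05, lies above those of the other arrays, at 3.83 to 3.91.

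Around these genes, the wider pathway was also largely measurable. Of 79 listed genes with other roles in the response, 74 had a probe and 65 of those (87.8%) were detected on all arrays, beside 52.4% of all named genes. Their median SD was 0.082, and none spanned over 2-fold, against 1.11% of the 8685 genes detected on all arrays. At that share, a list this short would hold few or none. The list was not drawn at random from the array, so these shares are a description. Several of the genes have other main functions, and detection does not show that the response was active.

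All 4 kinases of eIF2 alpha were detected. They were Eif2ak1, the haem-regulated kinase HRI, at 0.31 ± 0.048, Eif2ak2, the double-stranded RNA kinase PKR, at -5.82 ± 0.19, Eif2ak3, the endoplasmic reticulum kinase PERK, at -2.78 ± 0.059, and Eif2ak4, the amino acid sensor GCN2, at -3.63 ± 0.11. Eif2ak2 and Eif2ak3 were each detected by only 1 of 2 probes. The level of Eif2ak2 lay below that of the dimmer Ddit4 probe, -5.41, which was near the floor. All 8 subunits of eIF2 and of its exchange factor eIF2B were detected as well, with Eif2s1, the gene of the phosphorylated subunit, at 0.63 ± 0.039. Eif2s3 varied most of these, with an SD of 0.21 at a level of -4.71, beside the 0.18 of all genes below -4. All 5 genes listed for the phosphatase side were detected, a list that also holds the chaperone gene Dnajc3. Ppp1r15b, which encodes CReP, the constitutive paralogue of GADD34 that also brings protein phosphatase 1 to eIF2 alpha, was at -0.44 ± 0.063, and Dnajc3, a chaperone gene first described as an inhibitor of the kinases, was at -1.14 ± 0.17. The catalytic subunit gene Ppp1cb varied most, with an SD of 0.22 at a level of -3.22, read from 1 of its 2 probes. The input and the shut-off arms of the response were thus both represented by detected transcripts.

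Of the bZIP partners, 7 of 8 were detected. Cebpb, a dimer partner of ATF4 and CHOP, was at 2.41 ± 0.13 over a pair of probes 3.74 apart and varied most. Cebpg was at 0.59 ± 0.042, Atf5 at -1.42 ± 0.031 and Nfe2l2, which encodes NRF2, at 0.31 ± 0.062. Cebpa went undetected on every array.

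Genes of amino acid supply were detected for 12 of 13 members in synthesis and 6 of 8 in transport. Psat1 and Phgdh of serine synthesis were at -0.96 ± 0.12 and 0.91 ± 0.13, and Mthfd2 of mitochondrial folate metabolism at 1.39 ± 0.059. These genes had pairs of probes 7.33, 4.35 and 2.92 apart, so their mean levels depend on which probe is read. Aldh1l2 varied most in synthesis, with an SD of 0.26 at a level of -1.54, and Cbs was not well above background. Slc7a11, the cystine importer, was at -3.17 ± 0.10 with probes 3.96 apart, the large neutral amino acid transporter Slc7a5 at -2.91 ± 0.099, and their shared heavy chain Slc3a2 at 2.33 ± 0.18. Slc1a4 varied most in transport, with an SD of 0.23 at a level of -4.55. Slc7a3 was not well above background and Slc6a9 was detected on 1 array. All 12 cytosolic tRNA synthetase genes were detected, with Aars1 at 2.31 ± 0.13 and Gars1 at 1.86 ± 0.082 over probes 5.24 apart. The largest SD of these was 0.15, for Nars1 at a level of -2.91.

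Among other targets of ATF4 and CHOP, 8 of 12 were detected on all arrays. Gdf15, a secreted stress cytokine, was at 2.22 ± 0.14, and Herpud1, a component of protein disposal at the endoplasmic reticulum, at 1.72 ± 0.025. Bbc3, which encodes the death-promoting PUMA, was at 1.17 ± 0.044, Ero1a, an oxidase of the endoplasmic reticulum, at -0.94 ± 0.094, and the stress-induced chromatin protein gene Nupr1 at -4.07 ± 0.062. Bcl2l11, which encodes BIM, varied most, with an SD of 0.36 at a level of -4.06 and probes 3.86 apart. Vldlr, Stc2 and Vegfa went undetected on every array, and the hormone gene Fgf21 was detected on 1. The list thus held both detected and undetected targets of the same factors. Of the relatives of the 9 genes, Trib1 was at -4.28 ± 0.14, Chac2 at -4.25 ± 0.072 and Sesn3 at -6.08 ± 0.31, the last being the most variable. The level of Sesn3 lay below that of the dimmer Ddit4 probe, -5.41, which was near the floor. The SD of Sesn3 stands beside the 0.18 of all genes below -4. Trib2 was undetected. No probe was matched to Sesn1, Ddit4l, Nfe2l1, Slc7a1 or Tnfrsf10b.

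**Figure D5:**
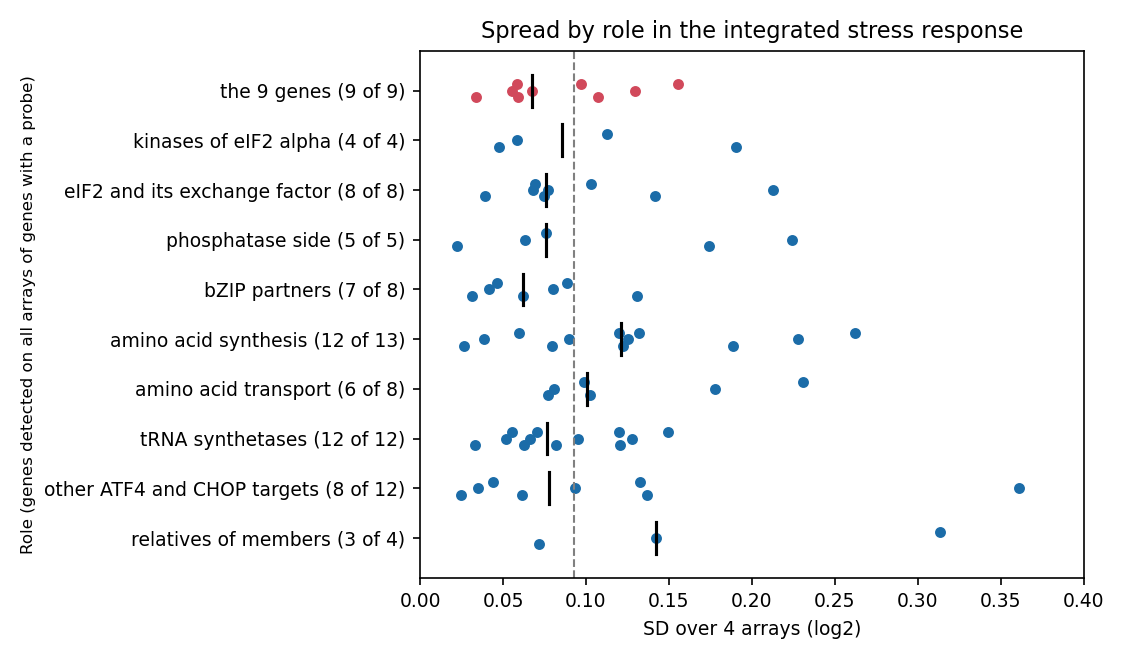
SD over 4 arrays (log2) of each detected gene, by role in the integrated stress response, with a black bar for the median of a role and a dashed line for the median of all detected genes, 0.093. Counts beside a role give the genes detected on all arrays of those with a probe. The 9 genes, in red, lie between 0.034 and 0.16, and Bcl2l11, at 0.36, lies farthest right.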

How the data were processed

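Total RNA of 4 NR8383 cultures was measured on 1-colour Agilent arrays, 1 array per culture, on 1 slide and in 1 scan, so neither could be tested as a batch. The authors deposited Agilent Feature Extraction 11.0.1.1 output, per the file headers, in which the processed signal is an intensity that was background-subtracted and detrended within an array and not normalized between arrays. Deposited flags of 0 or 1 marked detection, saturation and outlier spots.

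Control and outlier spots were left out. A probe was detected where most usable spots were well above background. Because under 50% of probes were detected, the log2 processed signal was scaled by each array's 75th percentile, taken over the 17807 probes that every array detected. Subtracting background can move dim probes most, whereas dividing by an array's percentile shifts all log2 levels of that array alike. Probes were named by RefSeq accession through a table of assembly GRCr8 (21109 of 45598 matched). The array design used another build, so no probe coordinates are given. A gene's level is the mean of its probes detected on all arrays.

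The genes and lists were chosen with earlier results of these data known. Named with values were the 9 genes, a fixed part of the pathway list, the most variable gene of each role, and listed genes not above background. limma 3.58.1 in R 4.3.3 compared arrays over replicate spots. In simulated data for that comparison over 1742 probes, it called 16% of 50 probes changed by 0.1 (log2) and 70.0% of 50 changed by 0.25. It called 84.0% of 50 changed by 0.5, and 4 of 1542 left unchanged. These shares pool probes with few and with many spots, so they do not give the chance of a call for Atf4, Atf3 or Asns. They describe simulated spots, and how often unchanged probes are called on the real arrays was not tested. Figures were drawn with matplotlib 3.10.9. Alternatives were normexp with an offset of 50 on median signals, since the files give no mean signal, 3 other scalings, the brightest probe, outlier spots kept, no filter on dim probes, a looser flag for detection, at least 3 arrays in place of 4, and leaving out each replicate.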

Additional observations from a re-analysis of the deposited data

Results flagged for a closer look

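In 47 series (the 10 probes of the 9 genes, and the other named genes with a level), the gap between the most distant array and its nearest neighbour was divided by the range of the 4 arrays and held against Dixon's 95% limit. The ratio passed in 5 of them, where chance alone gives about 2.35, that is about 5% of series. Ppp1r15a was at 2.44 on replicate 1 and at 2.31 to 2.33 on the others. Nupr1 was low on replicate 1, at -4.16 against -4.04 to -4.03, and Trib1 at -4.49 against -4.22 to -4.18. Bbc3 was high on replicate 4, at 1.24 against 1.15 to 1.16, and Cebpg at 0.65 against 0.57 on each of the others. Each of these gaps is small beside 2-fold.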

How the results depend on the processing

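All 9 genes were detected under each of 7 alternatives, and 65 or 66 of the pathway list. Over all named genes, 8686 to 10158 were detected, against 8685 in the main setting. Every spot of the 9 genes was well above background on all arrays, so no alternative could have lost 1 of them. Apart from keeping outlier spots, the alternatives only loosen the rule for detection, so the pathway list could not shrink under them. No gene of the 9 spanned over 2-fold under any of 11 alternatives, with a median SD of 0.056 to 0.082. In the main setting 1.11% of all detected genes did, and at that share a list of 9 would hold few or none. The median SD of the pathway list was 0.066 to 0.10. Other scalings move the zero of every level. Levels also moved where the percentile scaling was kept. With normexp correction on median signals, Ddit3 was at 1.15 against 0.92 and Ddit4 at -3.10 against -3.66. Only Atf4 and Sesn2 then stayed within their SD. Without replicate 1, Atf3 was at 0.092 against -0.036, and Asns, Ddit3 and Trib3 also moved by more than their SD. Levels thus hold only for the processing stated, and the SDs do not cover its choice. Read from its brightest probe, Ddit4 was at -1.91, against -3.66 as the mean of its probes. From median signals with normexp correction, 222 probes printed several times differed between arrays, against 746, and 0 of the 3 probes of Atf4, Atf3 and Asns did, against 1. The cause was not tested. Leaving out 1 replicate at a time gave 525 to 694 probes and 0 to 1 of the 3, the 0 without replicate 4. The median SD of all genes rose to 0.244 with no filter on dim probes. Signal over background limits the dimmer Ddit4 probe most. No paired analysis was possible because the labels give 1 group.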
